A study of Mus musculus with 28 samples.

Results

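The genes described here are 10 transcripts commonly used to mark astrocytes: Gfap, Aqp4, Gja1, Gjb6, Aldh1l1, Slc1a3, Slc1a2, Aldoc, Agt and Mlc1. They were chosen by name, with earlier results of these data known, and each was found once among the 55487 genes of the count table. All 10 passed the filter on low counts (at least 10 counts in at least 3 libraries) in every comparison. The values come from a TRAP-seq study of mouse hypothalamus, in which ribosomes carrying the fusion protein eGFP-L10a, made where the long leptin receptor LepRb is expressed, were pulled down with antibodies to GFP. Each of 14 lysates gave 1 bead library (RNA from the pull-down) and 1 depleted library (RNA left in the lysate afterwards), 28 libraries in all. All mice carried LepRb-eGFP-L10a, were 10 to 13 weeks old and of mixed sex, had food taken away when lights came on, and received metreleptin (leptin) at 5 mg/kg or vehicle by intraperitoneal injection. The leptin groups held 3 lysates of wild type at 3 h, 3 lysates of wild type at 10 h and 1 lysate of ob/ob at 10 h, a mutant whose leptin gene is defective. The vehicle groups held 4 lysates of wild type at 3 h, 1 lysate of wild type at 10 h and 2 lysates of ob/ob at 10 h. The transgene tags ribosomes of LepRb cells and not of astrocytes as a class, so the bead libraries were not made to sample astrocytes; the labels do not say whether a lysate held 1 mouse or several, and p-values measure the spread between these lysates.

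Astrocytes are the star-shaped glia that take up glutamate and potassium released by neurons, supply metabolites, and wrap capillaries with endfeet rich in water channels. They are coupled to each other by gap junctions built from connexins, so that ions and small molecules pass between cells. In the hypothalamus they lie close to the neurons that sense leptin, and astrocytes of this region are known to carry leptin receptors as well.

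The members fell into 6 roles. Gfap encodes the intermediate filament of the astrocyte cytoskeleton; Slc1a3 (GLAST) and Slc1a2 (GLT-1) encode the glutamate transporters that clear the synapse; Gja1 (connexin 43) and Gjb6 (connexin 30) encode the gap junction proteins; Aqp4 encodes the water channel of the endfoot and Mlc1 a membrane protein of the endfoot; Aldh1l1 encodes a folate enzyme and Aldoc the brain form of the glycolytic enzyme aldolase; and Agt encodes angiotensinogen, the precursor of angiotensins. On GRCm38 (GENCODE M21), Gfap lies on the minus strand of chromosome 11 from 102887336 to 102900912, Slc1a3 on the minus strand of chromosome 15 from 8634124 to 8710764, Gjb6 on the minus strand of chromosome 14 from 57123303 to 57133611 and Aldoc on the plus strand of chromosome 11 from 78322968 to 78327781. Gja1 lies on chromosome 10 (56377330 to 56402513), Aldh1l1 on chromosome 6 (90486427 to 90600203), Slc1a2 on chromosome 2 (102658659 to 102790784), Agt on chromosome 8 (124556534 to 124569706) and Mlc1 on chromosome 15 (88955884 to 88979007). Exons of Slc1a2 overlap those of Gm13872, and exons of Aldh1l1 overlap those of Gm45901 and Gm15756; the kit does not mark strand, so reads shared by such pairs cannot be told apart.

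The promoters of 4 members are shown because the results turn on these genes: Slc1a3 and Gjb6 were the members past the threshold for leptin in the depleted fraction, Gfap was the member with the widest gap between fractions, and Aldoc differed from the rest in how it varied. Each sequence holds 250 bases before and 50 bases after the gene's start in RefSeq (GRCm38.p6), 5′ to 3′ on the gene's strand, with capitals on matches to the STAT motif TTCNNNGAA (the letters bound by the STAT factors that leptin receptors activate) or the TATA motif TATAAA, searched on both strands.
Slc1a3 (chr15:8710758-8711057, minus strand): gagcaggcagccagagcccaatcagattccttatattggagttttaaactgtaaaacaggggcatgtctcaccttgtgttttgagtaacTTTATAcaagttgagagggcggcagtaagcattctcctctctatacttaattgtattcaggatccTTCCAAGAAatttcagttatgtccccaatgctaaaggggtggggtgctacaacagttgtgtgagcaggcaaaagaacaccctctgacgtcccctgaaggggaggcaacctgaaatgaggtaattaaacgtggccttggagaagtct
Gjb6 (chr14:57133562-57133861, minus strand): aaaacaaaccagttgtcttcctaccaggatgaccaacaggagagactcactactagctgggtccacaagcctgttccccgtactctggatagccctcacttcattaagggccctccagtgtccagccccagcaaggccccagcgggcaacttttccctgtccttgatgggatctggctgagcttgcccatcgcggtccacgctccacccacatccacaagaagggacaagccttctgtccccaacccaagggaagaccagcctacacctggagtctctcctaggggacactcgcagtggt
Gfap (chr11:102897151-102897450, minus strand): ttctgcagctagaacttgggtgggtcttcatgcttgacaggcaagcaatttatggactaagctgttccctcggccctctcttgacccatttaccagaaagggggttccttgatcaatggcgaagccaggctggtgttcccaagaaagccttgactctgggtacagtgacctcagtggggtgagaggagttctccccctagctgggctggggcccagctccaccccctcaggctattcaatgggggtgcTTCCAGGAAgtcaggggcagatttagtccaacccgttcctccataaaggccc
Aldoc (chr11:78322823-78323122, plus strand): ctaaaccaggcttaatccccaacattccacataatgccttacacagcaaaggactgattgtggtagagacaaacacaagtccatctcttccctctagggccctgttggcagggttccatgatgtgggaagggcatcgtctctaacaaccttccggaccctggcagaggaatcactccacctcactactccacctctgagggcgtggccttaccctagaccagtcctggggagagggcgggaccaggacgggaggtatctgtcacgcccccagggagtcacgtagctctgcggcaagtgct
The Slc1a3 promoter held 1 match to the STAT motif, beginning 96 bases before the start, and 1 to the TATA motif on the opposite strand; the Gfap promoter held 1 match to the STAT motif, beginning 2 bases before the start. The promoters of Gjb6 and of the Aldoc start shown held no match to either, while a second Aldoc start in RefSeq, not printed, had 2 matches to the STAT motif, beginning 124 and 83 bases before it. Among the members not printed, Agt had 1 match to the STAT motif, beginning 172 bases before the start, and 1 to the TATA motif, beginning 30 bases before it; Gja1, Aldh1l1, Slc1a2 and Mlc1 had none. Of 32851 mouse promoters of this length, 8.30% held the STAT motif and 13.6% the TATA motif. The promoter of Aqp4 was not searched, so the search covered 9 of the 10 members. These matches are descriptions of letters only.

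Libraries held between 21277982 and 42267040 counts in beads and between 19649105 and 41804049 counts in depleted RNA. Levels are CPM, counts scaled to a library of 1e+06 counts, after TMM scaling, a factor per library that sets the bulk of genes equal. Genes that mark LepRb cells were enriched in beads: Lepr itself had a log2 fold change of 2.28 over depleted RNA and Agrp, a neuropeptide of hunger neurons, one of 5.29. Each of the 3 settings (wild type at 3 h, wild type at 10 h, ob/ob at 10 h) was sequenced in 1 run. A difference of genotype or of time therefore cannot be told apart from a difference between runs. Within a setting, leptin and vehicle libraries came from the same run. Lysates f2 (leptin) and m3 (vehicle) of wild type at 3 h stood apart by pituitary transcripts: their depleted libraries had 3052 CPM (f2) and 279.9 CPM (m3) summed over 6 pituitary genes, the ob/ob leptin library had 146 CPM, and the other 11 depleted libraries 2.8 to 7.1 CPM. Leptin results that rest on wild type at 3 h are therefore also given without those lysates.

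All 10 astrocyte genes were lower in beads than in depleted RNA. Gfap had the largest difference, with 27.2, 44.9 and 97.3 CPM as the lowest, median and highest of 14 bead libraries and 90.0, 131 and 184 CPM as those of 14 depleted libraries. It was lower in the bead library of 14 of 14 lysates, and the fit put the bead level at 37.1% of the depleted level (log2 fold change -1.43 ± 0.15 SE, adjusted p = 5.3e-07 by edgeR's quasi-likelihood test with lysate as a block). The share of all 19682 genes called lower in beads was 39.3%, so a call alone says little about these genes; their median log2 fold change was -1.16, against -0.01 over all genes tested.

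The glutamate transporters had nearly equal log2 fold changes. Slc1a2 had 68.5, 148 and 406 CPM (lowest, median, highest) in beads and 248, 307 and 395 CPM in depleted RNA, a log2 fold change of -1.03 ± 0.18 (edgeR adjusted p = 8.5e-05). Slc1a3 had 19.4, 39.6 and 111 CPM in beads and 57.1, 93.4 and 124 CPM in depleted RNA, a log2 fold change of -1.03 ± 0.18 (edgeR adjusted p = 0.00012). The bead and depleted ranges overlapped for both, and their bead level exceeded the depleted level in 2 of 14 lysates for Slc1a2 and in 1 for Slc1a3. Lysate by lysate, the log2 ratio of beads to depleted RNA differed by -0.0023 between Slc1a2 and Slc1a3 (SD 0.116, n = 14, p = 0.94 in a two-sided exact sign-flip permutation test), and it was higher for Slc1a2 in 6 of 14.

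The connexins were also lower in beads. Gja1 had 10.3, 24.5 and 79.8 CPM (lowest, median, highest) in beads and 41.0, 56.7 and 82.8 CPM in depleted RNA, with a log2 fold change of -1.12 ± 0.19 (edgeR adjusted p = 7.9e-05). Gjb6 had 10.1, 16.8 and 34.5 CPM in beads and 30.7, 37.0 and 48.2 CPM in depleted RNA, with a log2 fold change of -1.15 ± 0.11 (edgeR adjusted p = 5.3e-08). Averaged over lysates the pair did not separate (Gjb6 minus Gja1 -0.01 on the log2 scale, p = 0.89 in the same exact permutation test), but single lysates did: the difference had an SD of 0.394, against 0.116 for the transporters, and Gjb6 had the higher ratio in 8 of 14. The smallest p such a test can give with 14 lysates is 0.00012, and adjusted over the 2 pairs compared both p-values were 0.94.

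The endfoot genes were lower in beads as well. Aqp4 had 6.5, 12.8 and 43.5 CPM (lowest, median, highest) in beads and 28.4, 36.3 and 51.2 CPM in depleted RNA, 2.53-fold lower in the fit (log2 fold change -1.34 ± 0.18, edgeR adjusted p = 8.0e-06). Mlc1 had 8.9, 15.9 and 52.6 CPM in beads and 27.2, 43.3 and 63.7 CPM in depleted RNA, 2.38-fold lower. Agt had 5.6, 16.1 and 53.1 CPM in beads and 24.6, 36.6 and 57.3 CPM in depleted RNA (2.26-fold lower, log2 fold change -1.17 ± 0.18).

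The metabolic enzymes differed from each other. Aldh1l1 was nearly constant in depleted RNA, between 31.8 and 38.4 CPM, and ranged from 7.6 to 25.9 CPM in beads. It was 2.42-fold lower in beads in the fit (log2 fold change -1.28 ± 0.11). Aldoc had the highest CPM of the members, with 516, 588 and 712 CPM (lowest, median, highest) in beads and 803, 943 and 1092 CPM in depleted RNA. Its difference was the smallest of the members, 1.57-fold (log2 fold change -0.65 ± 0.03), and its standard error was the smallest too. Per kilobase of exon, Aldoc averaged 184 ± 14.4 CPM in beads and 290.2 ± 23.2 CPM in depleted RNA (SD, n = 14 each), and the next most abundant member on that scale in depleted RNA, Gfap, averaged 12.0 ± 4.9 in beads and 30.6 ± 4.8 in depleted RNA.

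**Figure D1:**
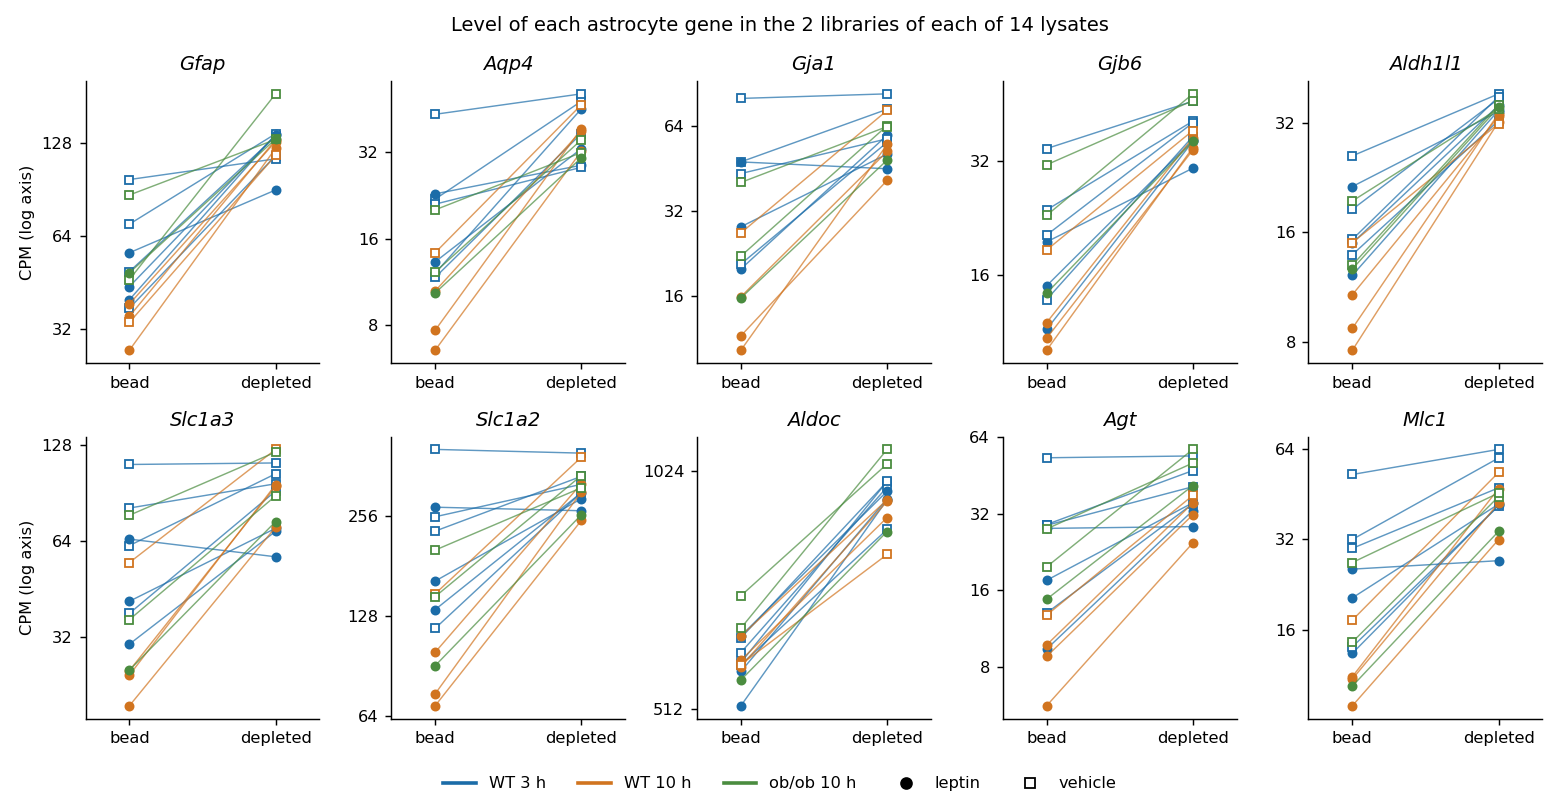
Level of each gene in CPM (log axis) in the bead (left) and depleted (right) library of each of 14 lysates, joined by a line; colours mark genotype and time, filled circles leptin and open squares vehicle. Most lines climb to the depleted library, with Aldoc lines nearly parallel and those of Slc1a2, Slc1a3 and Gja1 ranging from flat to steep.

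How far the members were reduced in beads varied widely between lysates for 9 members and little for Aldoc. Expressed as the bead level in percent of the depleted level of the same lysate, the median over the 10 members was 86.6% (f2), 49.2% (f4) and 33.0% (m24) in the leptin lysates of wild type at 3 h, and 85.3% (f1), 66.7% (f3), 58.8% (m1) and 37.2% (m3) in the vehicle lysates. At 10 h it was 27.5%, 30.3% and 25.5% in the wild-type leptin lysates and 37.9% in the wild-type vehicle lysate. In ob/ob mice it was 35.4% in the leptin lysate and 35.5% and 63.4% in the vehicle lysates. The f1 and f2 lysates had the highest medians, and in them single members reached the depleted level: in f2 Slc1a3 stood at 114%, Gja1 at 106% and Slc1a2 at 102%, and in f1 Slc1a2 stood at 103%.

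Aldoc stood at between 54.8% and 72.5% of its depleted level in every lysate (median 64.1%). The SD of its log2 ratio over 14 lysates was 0.104, against 0.423 to 0.714 for the other 9 members, whose percentages ran from 18.8% (Gja1) to 114% (Slc1a3). Aldoc had the highest percentage of the 10 members in m3, where it stood at 67.4% with a member median of 37.2%, and the lowest in f1, where it stood at 61.7% with a member median of 85.3%. Over the 28 libraries Aldoc was the member farthest from the members' mean: by the root mean square distance from the members' mean log2 profile, Slc1a2 ranked 5 of 11719 genes and Gjb6 ranked 7, while Aldoc ranked 1408. Over the 14 bead libraries it was again the farthest, at 3476. Over the 14 depleted libraries it was not: Aldoc ranked 1978, nearer than Agt (4369), Slc1a3 (4721), Gfap (4780) and Aqp4 (4881). The mean was taken over all 10 members each time, so every member helped to set it and close ranks of members are partly built in.

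Percentages of other cell types also varied between lysates, partly in another order. The median over 10 oligodendrocyte genes was 57.0% in the second ob/ob vehicle lysate, 47.7% in f1, 45.6% in f2 and 33.2% in f3, and 22.5% to 23.9% in the wild-type 10 h leptin lysates. The median over 10 microglia genes was 49.7% in the second ob/ob vehicle lysate, 47.1% in f1, 59.3% in f2 and 34.3% in f3, and 18.1% to 24.2% in the same 10 h lysates. The second ob/ob vehicle lysate was thus highest for oligodendrocyte genes, with a member median of 63.4%, below that of f3. The median over 11 endothelial and mural genes was 276% in f1, 206% in f2 and 294% in f3, and 52.6% to 71.1% in those 10 h lysates. The median over 8 markers of LepRb cells ran the other way, 664% in f2 and 964% in f1, and 2284% to 2437% in those 10 h lysates. The median over 10 neuron genes stayed between 103% and 135% in all 14 lysates. None of these lists had a gene at 0 throughout a group, and the part of such differences in the members' values was not tested.

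**Figure D2:**
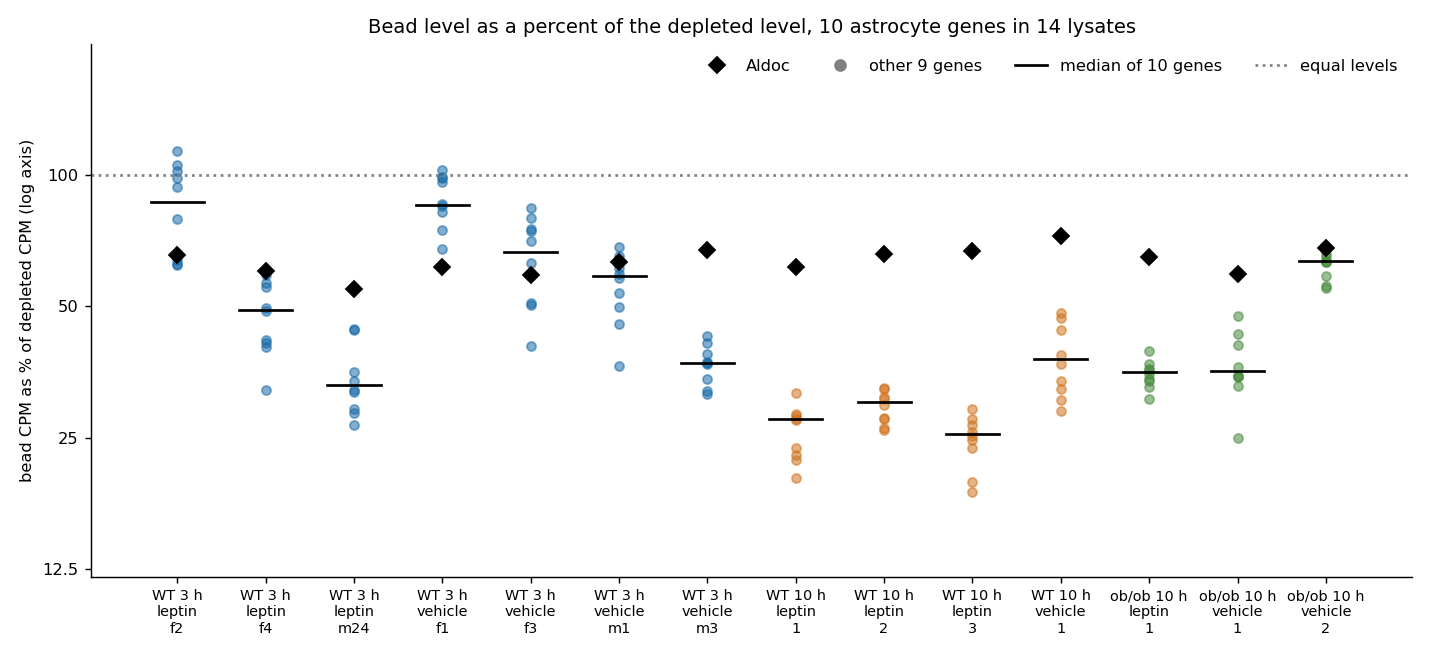
Bead level in percent of the depleted level (log axis) for the 10 genes in each lysate, ordered by genotype and time with leptin left of vehicle; diamonds mark Aldoc, circles the other genes, bars the median. Aldoc stays between 54.8% and 72.5% while the lysate medians run from 25.5% to 86.6%.

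The reduction held within each sequencing run. In wild type at 3 h all 10 members were called lower in beads (32.4% of all genes were), with log2 fold changes between -1.20 for Gfap and -0.57 for Slc1a3. At 10 h in wild type all 10 were called lower (35% of all genes), between -2.04 for Aqp4 and -0.58 for Aldoc. In ob/ob mice at 10 h all 10 were called lower (23.2% of all genes), between -1.34 for Gfap and -0.64 for Aldoc. Without lysates f2 and m3 the count stayed at 10 of 10 in wild type at 3 h.

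In wild type the bead difference at 10 h was more negative than at 3 h for 9 members, but no member passed the threshold for that comparison. The difference of log2 fold changes (10 h minus 3 h) ran from -0.50 for Gjb6 to -1.16 for Slc1a3, with adjusted p between 0.063 and 0.197, and was 0.12 for Aldoc (adjusted p = 0.33); 0.427% of all genes were called lower in this comparison. Slc1a3 stood at 25.2%, 26.9% and 44.1% of the depleted level as the lowest, median and highest of the wild-type 10 h lysates, and at 41.3%, 59.5% and 114% at 3 h. By edgeR 0 of 10 members passed, and 9 were under 0.05 before adjustment. Limma voom called 0 and DESeq2 7, and edgeR called 6 when lysate m24 or lysate m3 was left out and 1 without both f2 and m3. For these alternatives the shares of all genes called are not given here. Between ob/ob and wild type at 10 h the bead difference was smaller in ob/ob by 0.43 to 0.81 on the log2 scale for 9 members and by -0.06 for Aldoc, with 0 members past the threshold, 0 at an unadjusted p under 0.05 and 0 by DESeq2 or voom (0.142% of all genes called in either direction). Neither time nor genotype can be told apart from sequencing run in these comparisons. The groups also differed in treatment, with leptin in 3 of 4 wild-type lysates at 10 h, 3 of 7 at 3 h and 1 of 3 in ob/ob, and the part of that imbalance was not tested.

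Other astrocyte transcripts were mostly lower in beads too. These lists and those below were chosen with earlier results of these data known, so their counts are descriptions only. Of 54 further astrocyte genes in 4 lists, 52 were called lower in beads and 1 higher, with a median log2 fold change of -1.03. Among all genes 39.3% were called lower and 38.6% higher. All 12 transport and ion genes were lower, among them the potassium channel gene Kcnj10 and the mitochondrial glutamate carrier gene Slc25a18 (-1.45), with Slc39a12 (-0.75), a zinc transporter gene, and Atp1b2 (-0.33), a sodium pump subunit gene, changing least. All 12 metabolism genes were lower, from the lipid-binding protein gene Fabp7 (-1.70) and Etnppl (-1.65) to Acsl6 (-0.60) and the glycine cleavage gene Gldc (-0.44). Of 20 surface and secreted genes 18 were lower, led by S100b (-1.76) and the apolipoprotein gene Apoe (-1.57), and 1, the secreted chaperone gene Clu (0.49), was higher. All 10 transcription factor and Notch genes were lower, from Nfia (-1.81) and Id3 (-1.73) to Sox2 (-0.34) and Id4 (-0.10).

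Genes induced in reactive astrocytes were called in both directions. Of 12 tested, 6 were called higher in beads and 3 lower, with a median of 0.37. For this and the further lists below, 38.6% of all genes were called higher and 39.3% lower over all lysates. Timp1, an inhibitor of matrix proteases, had a log2 fold change of 3.90 and the protease inhibitor gene Serpina3n one of 3.13. Aspg (-1.08) and the copper carrier gene Cp (-0.58) were lower. By setting, 7 were higher and 1 lower in wild type at 3 h (median 0.56), 4 higher and 4 lower in wild type at 10 h (median 0.20), and 2 higher and 1 lower in ob/ob (median -0.01). In the same order, 32.4%, 35% and 23.2% of all genes were called lower. The shares called higher by setting are not given here, so those counts cannot be compared between settings. The summed bead level of the list was 361 CPM in the ob/ob leptin library and 82.1 and 99.3 CPM in the ob/ob vehicle libraries, and 224 to 474 CPM in wild type. The sum does not describe the genes evenly. In percent of the depleted level, the median over 10 of these genes was 118% in the ob/ob leptin lysate, with the highest gene at 2061%. In the ob/ob vehicle lysates the medians were 78.9% and 93.4%, with the highest genes at 277% and 420%. The part of single genes in the sum was not tested. Gfap, which also belongs to the reactive response, was lower as described above. Of 7 other connexin genes 4 were lower, led by the oligodendrocyte connexin gene Gjc3 (-1.95) and Gjb2 (-1.66), and 2 were higher, the neuronal connexin gene Gjd2 (0.28) and the vascular connexin gene Gja4 (0.55). Of 7 other genes from the families that hold glutamate transporters, 3 were lower, including the vesicular transporter genes Slc17a7 (-1.36) and Slc17a8 (-0.70). The other 4 were higher, including Slc1a6 (0.55) and Slc1a4 (0.79), which belong to the same family as Slc1a2 and Slc1a3. Of 10 genes of partners of Aqp4 and Mlc1, 6 were lower; Hepacam (-1.56), whose protein binds Mlc1, was the lowest, and the dystrophin complex genes Dtna (-0.16) and Dag1 (-0.16) changed least. Of 8 angiotensin system genes tested, 4 were lower, including Agtr2 (-0.52) and Lnpep (-0.43), and 3 were higher, including the receptor gene Agtr1a (1.03) and the converting enzyme gene Ace (0.37).

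Lists of other cell types gave the following counts, where 39.3% of all genes were called lower in beads and 38.6% higher. All 10 oligodendrocyte genes were called lower in beads (median -1.57) and all 10 microglia genes were (median -1.69), both further down than the members' -1.16. Of 10 neuron genes 7 were higher and 2 lower (median 0.18), and all 8 markers of LepRb cells were higher (median 3.84). Of 12 endothelial and mural genes 4 were higher and 3 lower (median 0.39), and of 10 tanycyte genes 2 were higher and 7 lower (median -0.52).

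**Figure D3:**
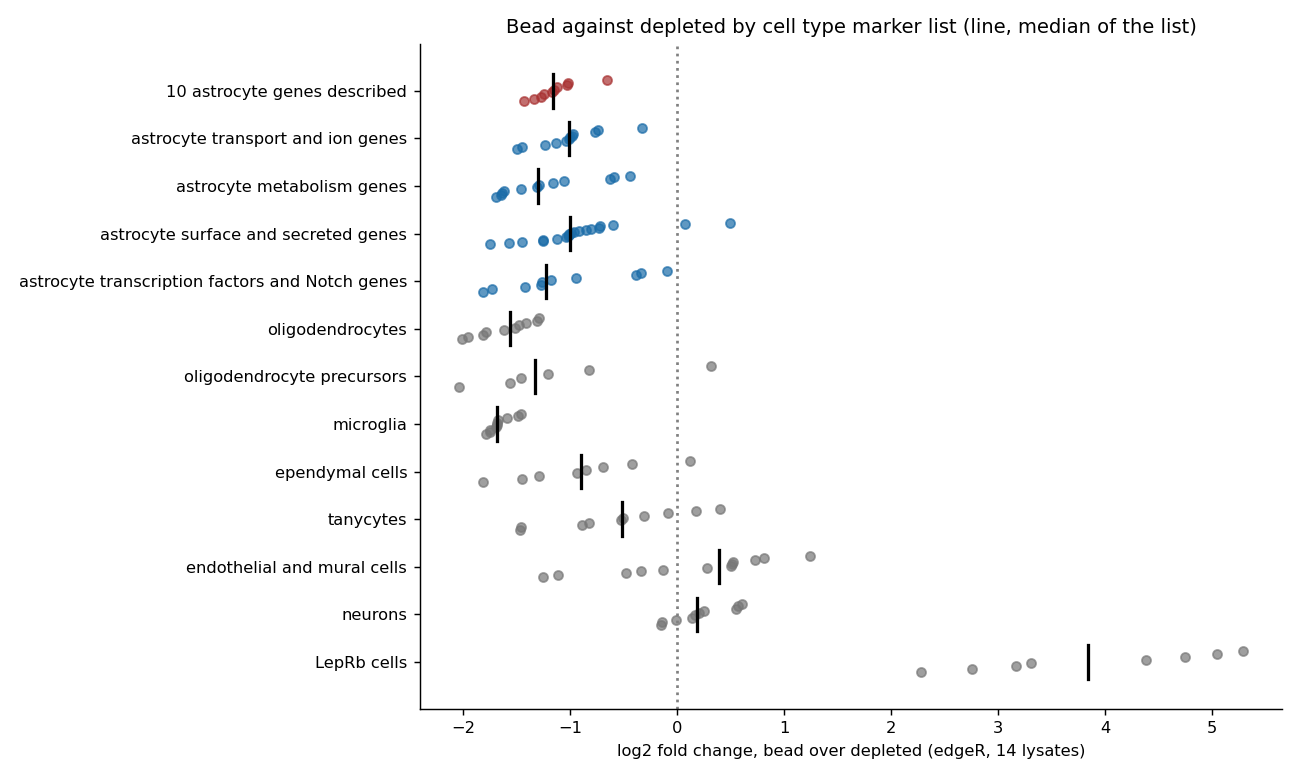
Log2 fold change of beads over depleted RNA for each gene of the marker lists, with a line at each list's median; negative values mean lower in beads. The 10 astrocyte genes centre on -1.16, between the tanycyte median of -0.52 and the microglia median of -1.69.

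The question of the study was what leptin changes. In depleted RNA, Slc1a3 was lower after leptin in every setting. In wild type at 3 h it had 57.1, 70.2 and 68.6 CPM in leptin libraries and 113, 96.8, 104 and 91.8 CPM in vehicle libraries. At 10 h it had 70.8, 95.0 and 96.2 CPM in wild-type leptin libraries and 124 CPM in the vehicle library. In ob/ob mice it had 73.7 CPM in the leptin library and 88.7 and 122 CPM in vehicle libraries. Leptin libraries lay below vehicle libraries without overlap in each of the 3 settings. Of all genes in depleted RNA, 3.57% did so in wild type at 3 h, 29.0% in wild type at 10 h and 31.2% in ob/ob. In all 3 settings 1.19% of genes did so. Fitted over all settings, Slc1a3 after leptin stood at 66.5% of its vehicle level (log2 fold change -0.59 ± 0.09 SE, adjusted p = 0.032 by edgeR), and the separate values were -0.64 ± 0.14 at 3 h, -0.52 at 10 h in wild type and -0.52 in ob/ob. In bulk RNA, fewer astrocytes and less of the transcript per astrocyte cannot be told apart.

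Gjb6 was the other member past the threshold. At 3 h in wild type Gjb6 had 30.7, 36.3 and 36.1 CPM in leptin libraries and 46.1, 40.4, 40.8 and 37.2 CPM in vehicle libraries. At 10 h it had 34.3, 36.9 and 34.8 CPM in wild-type leptin libraries and 38.6 CPM in the vehicle library, and in ob/ob mice 36.1 CPM in the leptin library and 48.3 and 46.3 CPM in vehicle libraries. These groups did not overlap either, with leptin below vehicle in each setting, as for 1.19% of all genes in depleted RNA. The leptin level of Gjb6 was 83.3% of the vehicle level in the fit (log2 fold change -0.26 ± 0.06, edgeR adjusted p = 0.042).

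Slc1a2, the other transporter, also lay lower after leptin in each setting and did not pass the threshold. At 3 h in wild type Slc1a2 had 265, 288 and 301 CPM in leptin libraries, against 395, 319, 337 and 301 CPM in vehicle libraries, and the highest leptin library (300.6 CPM) was nearly level with the lowest vehicle library (301.0 CPM). At 10 h it had 248, 320.0 and 302 CPM in wild-type leptin libraries and 385 CPM in the vehicle library, and in ob/ob mice 258 CPM with leptin and 338 and 311 CPM with vehicle. Its log2 fold change was -0.31 ± 0.07 (edgeR adjusted p = 0.054). Slc1a3, Slc1a2 and Gjb6 were the 3 members whose leptin libraries all lay below the vehicle libraries in each setting, which held for 1.19% of the 19115 genes tested in depleted RNA; within wild type at 3 h alone the same 3 members and 3.57% of all genes did so.

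The other members had smaller or less even differences in depleted RNA. Gja1 had a log2 fold change of -0.44 ± 0.11 (edgeR adjusted p = 0.078), Agt of -0.42 ± 0.11 (adjusted p = 0.088), Mlc1 of -0.48 ± 0.14 (adjusted p = 0.13) and Aqp4 of -0.24 ± 0.14 (adjusted p = 0.46). Gfap, Aldh1l1 and Aldoc lay near 0, at -0.06 ± 0.11, -0.03 ± 0.04 and -0.03 ± 0.05. Gfap averaged 121 ± 26.6 CPM with leptin and 125 ± 12.0 CPM with vehicle in wild type at 3 h (SD, n = 3 and 4), and Aldoc averaged 951 ± 13.1 CPM with leptin and 957 ± 62.8 CPM with vehicle. All 10 values were negative (median -0.29, against 0.00 over all genes), 2 of 10 were called lower, and 0.534% of all genes were.

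The leptin calls depended on the libraries included. The direction of Slc1a3 and Gjb6 was the same under every alternative tried, from -0.63 to -0.52 for Slc1a3 and from -0.30 to -0.23 for Gjb6, but Slc1a3 passed the threshold under 15 of 23 alternatives and Gjb6 under 7 of 23. Without lysates f2 and m3 the adjusted p was 0.069 for each. Leaving out f2 alone gave 0.11 for Slc1a3, leaving out the single wild-type 10 h vehicle library gave 0.13, and leaving out the ob/ob leptin library or the second ob/ob vehicle library gave 0.072 and 0.056. The count of members called was 5 without m3 and 4 without m24, and 0 without f2, the wild-type 10 h vehicle lysate, the ob/ob leptin lysate or the second ob/ob vehicle lysate. It was 1 without m1, f1, f4, any 1 of the wild-type 10 h leptin lysates or the first ob/ob vehicle lysate. DESeq2 called 6 members lower and limma voom 1. Shares of all genes called under these alternatives are not given here, so the counts cannot be set against all genes.

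Some microglia genes and other astrocyte genes were also lower. In the same fit over all settings 0.534% of all genes were called lower. The list counts below were not repeated with lysates left out. Of 10 microglia genes 5 were called lower after leptin in depleted RNA (median -0.50), including the lysosomal protease gene Ctss (-0.68) and the receptor gene Csf1r (-0.55); their summed level was 63.8 to 80.5 CPM with leptin and 91.1 to 133 CPM with vehicle in wild type at 3 h, 74.2 to 92.9 CPM with leptin and 116 CPM with vehicle in wild type at 10 h, and 75.6 CPM with leptin and 87.6 to 97.3 CPM with vehicle in ob/ob, with no microglia gene at 0. Of 12 endothelial and mural genes 0 were called by edgeR and 6 were under 0.05 before adjustment (median -0.23); of 10 oligodendrocyte genes 0 were called and 0 were under 0.05 (median -0.06). Of 5 pituitary genes tested 0 were called and 1 was under 0.05 (median 0.95), and the sixth, Lhb, was at 0 in every library. The summed level of 10 tanycyte genes was 51.2 to 66.3 CPM with leptin and 62.8 to 81.4 CPM with vehicle in wild type at 3 h. In wild type at 10 h it was 61.8 to 72.0 CPM with leptin and 121 CPM in the vehicle library. In ob/ob it was 64.3 CPM with leptin and 86.5 to 96.6 CPM with vehicle. The part of these cell types in the members' difference was not tested. Among the 54 further astrocyte genes, 8 were called lower and 0 higher: 5 of 20 surface and secreted genes, among them Mfge8 (-0.59), an opsonin gene, the coagulation factor receptor gene F3 (-0.54), Cldn10 (-0.41) and the sphingosine receptor gene S1pr1 (-0.38); 2 of 12 transport genes, the glutamine transporter gene Slc38a3 (-0.48) and the bicarbonate transporter gene Slc4a4 (-0.28); and 1 of 12 metabolism genes, Elovl2 (-0.44), which elongates fatty acids. Of 10 transcription factor and Notch genes 0 were called by edgeR and 0 were under 0.05 before adjustment, and their median was 0.06.

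**Figure D4:**
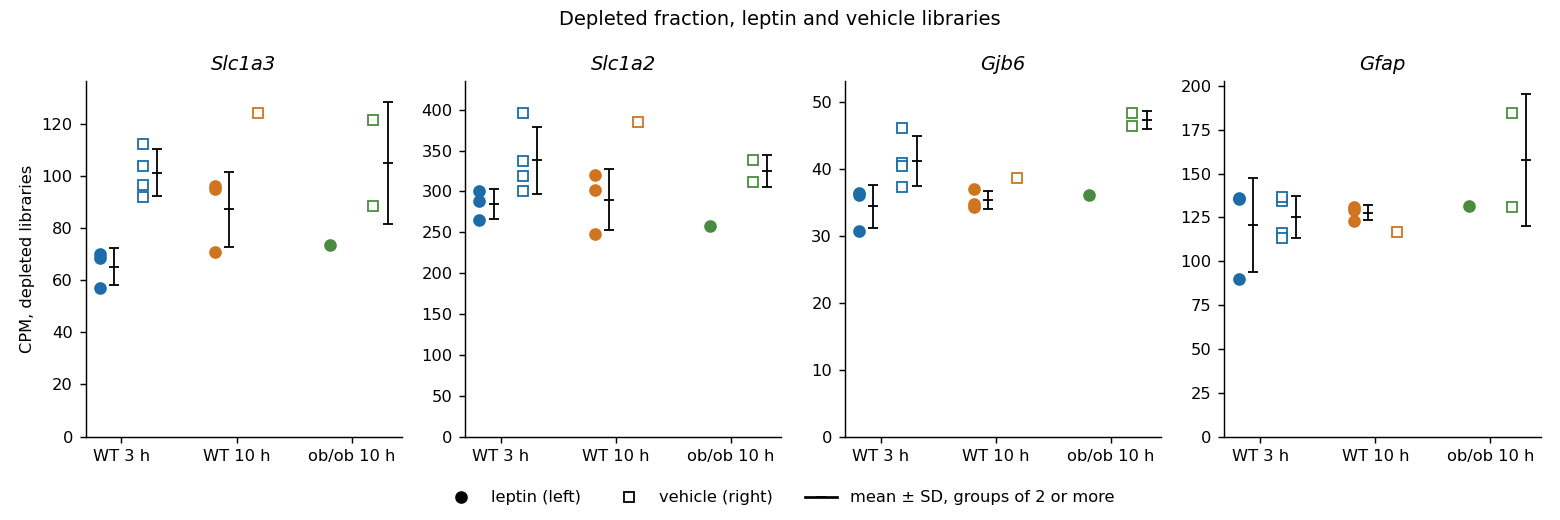
CPM in depleted libraries for 4 members, with leptin (filled circles) left of vehicle (open squares) in each setting and mean ± SD for groups of 2 or more. Slc1a3, Slc1a2 and Gjb6 points do not overlap between leptin and vehicle in any setting, while Gfap points overlap at 3 h and in ob/ob.

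In bead libraries leptin gave no member past the threshold, with larger fitted values and larger errors. Slc1a3 in beads had 64.9, 41.4 and 30.3 CPM with leptin and 111, 81.2, 61.9 and 37.9 CPM with vehicle in wild type at 3 h. It had 19.4 to 25.04 CPM in the 3 leptin libraries and 54.7 CPM in the vehicle library in wild type at 10 h, and 25.2 CPM with leptin and 36.2 and 77.1 CPM with vehicle in ob/ob. The groups overlapped at 3 h, where vehicle m3 lay below leptin f2 and f4. They did not overlap in either 10 h setting. Leptin bead libraries lay below vehicle libraries for 27.5% of all genes in wild type at 10 h and for 32.3% in ob/ob. Over all settings its log2 fold change was -0.94 ± 0.27 (edgeR adjusted p = 0.26), that of Gjb6 was -0.71 ± 0.18 (adjusted p = 0.19) and that of Gja1 was -0.80 ± 0.29 (adjusted p = 0.35).

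All 10 bead values were negative (median -0.69, against 0.01 over all genes) and edgeR called 0 members, with 7 at an unadjusted p under 0.05; DESeq2 called 1 and voom 0, and 0.00549% of all genes were called lower. Aldoc again lay nearest 0 (-0.10 ± 0.07). Without lysates f2 and m3 edgeR called 7 members, and without wild type at 3 h or without m3 alone it called 2. The shares of all genes called in these refits are not given here, so the 3 counts cannot be set against all genes. Medians over other lists were also negative in beads: -0.78 for microglia, -0.50 for oligodendrocytes and -0.67 for endothelial and mural genes, with 0 genes called by edgeR in each and 8 of 10, 7 of 10 and 5 of 12 under 0.05 before adjustment. No member had its leptin bead libraries all below the vehicle libraries in each of the 3 settings, which 0.571% of all genes did; in wild type at 3 h 0 members and 4.13% of all genes did so.

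Taken setting by setting, leptin gave no member past the threshold. In wild type at 3 h the bead values ran from -0.77 for Agt to -0.07 for Aldoc (0 called by edgeR, 1 at an unadjusted p under 0.05, 0 by DESeq2 and voom, 0% of all genes called lower), and the depleted values ran from -0.64 for Slc1a3 to -0.02 for Aldoc (0 called by edgeR, 6 at an unadjusted p under 0.05, 1 by DESeq2, 0 by voom, 0% of all genes). At 10 h in wild type, with 1 vehicle library, the bead values ran from -1.28 for Slc1a3 to 0.03 for Aldoc (0 called by edgeR, DESeq2 and voom, 1 unadjusted, 0% of all genes), and the depleted values from -0.57 for Gja1 to 0.19 for Aldoc (0 called by edgeR, DESeq2 and voom, 4 unadjusted, 0.272% of all genes). In ob/ob mice, with 1 leptin library, the bead values ran from -1.19 for Slc1a3 to -0.30 for Aldoc (0 called by edgeR, DESeq2 and voom, 0 unadjusted, 0% of all genes) and the depleted values from -0.52 for Slc1a3 to -0.00 for Aldh1l1 (0 called by edgeR, DESeq2 and voom, 3 unadjusted, 0% of all genes). The groups with 1 library borrowed their spread from the other groups. Without lysates f2 and m3, the values at 3 h in wild type ran from -1.48 for Agt to -0.16 for Aldoc in beads (0 called by edgeR, 9 unadjusted) and from -0.60 for Slc1a3 to 0.07 for Gfap in depleted RNA (0 called, 6 unadjusted).

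**Figure D5:**
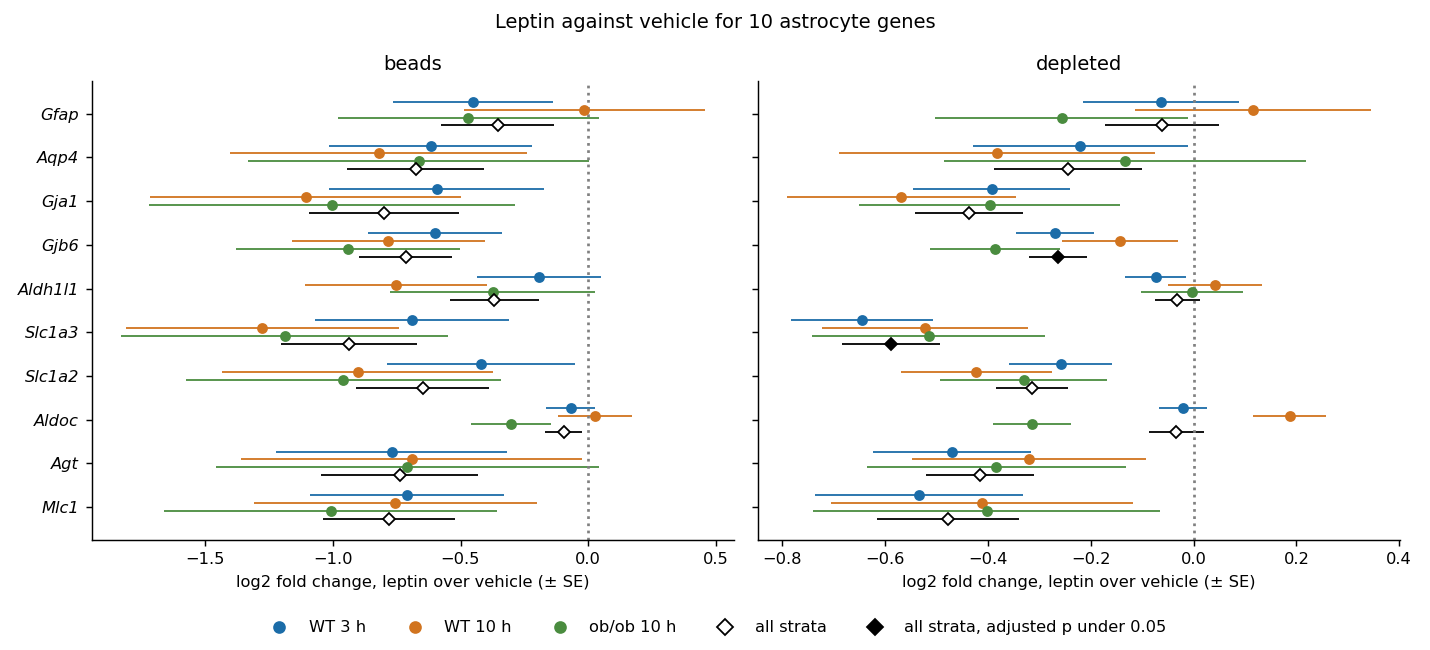
Log2 fold change of leptin over vehicle (± SE) for each gene in beads (left) and depleted RNA (right), by setting and over all settings; filled diamonds mark an adjusted p under 0.05. In depleted RNA Slc1a3 and Gjb6 are the filled diamonds, at -0.59 and -0.26, and Aldh1l1, Gfap and Aldoc lie near 0.

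No difference between leptin effects passed the threshold for a member. The leptin effect at 3 h in beads minus that in depleted RNA ran from -0.32 for Aqp4 to -0.02 for Slc1a3, with 0 members called by edgeR, DESeq2 or voom and 0 at an unadjusted p under 0.05 (0.0102% of all genes). Without f2 and m3 it ran from -1.01 for Aqp4 to -0.09 for Aldoc, with 0 called by edgeR and 7 at an unadjusted p under 0.05. The effect in ob/ob minus that in wild type at 10 h gave 0 members by the 3 tools in beads (0% of all genes, 0 members unadjusted) and in depleted RNA (0% of all genes, 1 member unadjusted), with Slc1a3 at 0.01 in depleted RNA. The effect at 10 h minus 3 h in wild type also gave 0 members by the 3 tools in beads (0% of all genes, 0 unadjusted) and in depleted RNA (0.00523% of all genes, 1 unadjusted), where Slc1a3 was at 0.12. Without f2 and m3 edgeR again called 0 in beads (0 unadjusted) and 0 in depleted RNA (1 unadjusted).

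Neither genotype nor time gave a member past the threshold in edgeR. In depleted RNA, ob/ob against wild type at 10 h ran from -0.37 for Aqp4 to 0.47 for Agt, with 0 called by edgeR and voom, 1 by DESeq2 and 2 at an unadjusted p under 0.05, while 5.57% of all genes were called. Agt had 41.3 CPM with leptin and 50.7 and 57.3 CPM with vehicle in ob/ob, and 24.6, 31.7 and 35.3 CPM with leptin and 37.8 CPM with vehicle in wild type at 10 h; the ob/ob libraries all lay above the wild-type ones, and the adjusted p was 0.14. The same held for Aldh1l1 and Gfap, and for 10.5% of all genes. For Gfap the lowest ob/ob library (131.2 CPM) was nearly level with the highest wild-type library at 10 h (130.9 CPM). Leptin libraries were 1 of 3 in ob/ob and 3 of 4 in wild type; the fit weighted leptin and vehicle equally. In beads the same comparison ran from 0.06 for Aldoc to 0.90 for Agt, with 0 called by the 3 tools, 1 unadjusted, and 0.472% of all genes called. Wild type at 10 h against 3 h ran from -0.15 for Agt to 0.36 for Slc1a3 in depleted RNA (adjusted p = 0.095 for Slc1a3; 0 called by edgeR and voom, 2 by DESeq2, 3 unadjusted; 7.18% of all genes) and from -1.24 for Agt to 0.02 for Aldoc in beads (0 called by the 3 tools, 7 unadjusted, 0% of all genes). Differences of genotype or of time cannot be told apart from differences between sequencing runs here either.

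Among genes that were not members, those whose profile lay closest to the members' mean over the 28 libraries were Scd1, a fatty acid desaturase gene, Kcnj16, a potassium channel gene, S1pr1, Gprc5b and Slc12a2, an ion cotransporter gene, at root mean square distances of 0.119, 0.144, 0.146, 0.152 and 0.166 on the log2 scale among 11719 genes with a mean of at least 5 CPM. Over the 14 bead libraries alone the closest were Fam20a, Scd1, Plpp3, Kcnt1 and Epas1. Over the 14 depleted libraries alone they were Fads2, a fatty acid desaturase gene, Ttyh1, Tmem9, Sirpa and Porcn. Scd1 was on the first 2 of these lists.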

How the data were processed

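RNA was measured in 14 hypothalamic lysates, each giving a bead and a depleted library. The authors deposited raw read counts per gene for 28 libraries; reads (50 cycles, single-end, TruSeq mRNA v2) were aligned with STAR 2.7.6a to GRCm38.p6, per the submitters' processing notes and the labels' protocols. The counting program, strand setting and annotation were not given in the sources used here. Members were matched by gene name; the members and the gene lists were chosen with earlier results of these data known.

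Counts were tested with edgeR 4.0.16 (TMM, robust quasi-likelihood; a gene needed 10 counts or more in 3 or more of the libraries fitted; Benjamini-Hochberg over all genes tested, threshold 0.05). Bead against depleted used the lysate as a block; leptin was fitted in each fraction over 6 groups sharing 1 spread, or with setting as a term over all 14 libraries. Every adjusted p-value is edgeR's unless another tool is named. The titles tie the 2 libraries of a lysate: over 10 lysates of groups of at least 3, their deviations from the group means correlated at 0.107 to 0.633 across 11719 genes, and in 10 of 10 the closest depleted library was the lysate's own. Ratios and pair tests used a pseudocount of 0.5 (scipy 1.17.1). The fits were tested on simulated counts with known changes. DESeq2 1.42.0, limma 3.58.1 voom, other scalings, no filter and left-out lysates were tried. Of each gene list, up to 4 genes are named: the 2 highest and the 2 lowest log2 fold changes past the threshold with a mean of at least 1 CPM. The range of total counts per library in each fraction is given in the report, and the lowest count of a member in any library was 191.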

Additional observations from a re-analysis of the deposited data

Results flagged for a closer look

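Of 20 sets of 4 libraries examined for a value far from the others (10 members in the bead and the depleted vehicle libraries of wild type at 3 h), 1 stood out. Aldoc had 864 CPM in the depleted vehicle library m3 of wild type at 3 h, against 978 to 994 CPM in the other 3 libraries of that group. The gap from m3 to its nearest neighbour, as a share of the group's range, was above Dixon's 95% critical value for 4 samples, and chance alone gives about 1 such set in 20. Lysate m3 also carried pituitary transcripts (279.9 CPM in its depleted library); their part in the Aldoc value was not tested.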

How the results depend on the processing

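The lower level in beads was called for 10 of 10 members in all lysates together and in each setting, under every alternative run; without the replicate block, which drops the lysate pairing, these counts were 10 too, and the counts for the differences of the bead effect between settings and of the leptin effect between fractions at 3 h were 0, so the block changed no count of members. Testing without the filter on low counts gave member counts of 9 (difference of the bead effect, wild type 10 h minus 3 h), 8 (ob/ob minus wild type at 10 h), 6, 3 and 3 (leptin in beads in wild type at 3 h, wild type at 10 h and ob/ob), 2 and 8 (beads, ob/ob against wild type and 10 h against 3 h), 6, 5 and 2 (leptin in depleted RNA in the same order), 6 and 1 (depleted RNA, ob/ob against wild type and 10 h against 3 h), 1 (leptin effect, ob/ob minus wild type, depleted), and 8 and 7 (leptin over all settings in beads and in depleted RNA); the cause was not tested. DESeq2 gave 7 for the bead effect 10 h minus 3 h, 1 for leptin at 3 h in depleted RNA, 1 for ob/ob against wild type and 2 for 10 h against 3 h in depleted RNA, and 1 (beads) and 6 (depleted) for leptin over all settings; limma voom gave 1 for the last. Without lysates f2 and m3 the counts were 1 for the bead effect 10 h minus 3 h, 1 for 10 h against 3 h in depleted RNA, and 7 (beads) and 0 (depleted) for leptin over all settings. In fits chosen after seeing the data, leptin over all settings in depleted RNA gave 0 without ob/ob, 0 without wild type at 10 h and 0 without wild type at 3 h, and in beads 2 without wild type at 3 h, each with fewer samples.

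Leaving out each lysate in turn gave 0 to 6 members for the bead effect 10 h minus 3 h, 0 to 1 for 10 h against 3 h in depleted RNA, 0 to 2 for leptin over all settings in beads and 0 to 5 in depleted RNA. Shares of all genes called under the alternatives of this section are not given here. Whether calls rose for all genes therefore cannot be read from these member counts. Signs turned for differences near 0. For leptin over all settings in depleted RNA, left-out lysates gave -0.116 to 0.0198 for Gfap and -0.101 to 0.0349 for Aldoc, leaving out wild type at 3 h gave 0.0179 for Aldh1l1 and leaving out ob/ob gave 0.0348 for Aldoc. At 3 h, left-out lysates gave -0.448 to 0.0187 for Aldh1l1 in beads and -0.164 to 0.107 for Gfap in depleted RNA, which was 0.0738 without f2 and m3. The pair differences ran from -0.0193 to 0.0123 (Slc1a2 minus Slc1a3) and from -0.0636 to 0.0392 (Gjb6 minus Gja1) with a lysate left out, and a pseudocount of 2 gave 0.0014 for Gjb6 minus Gja1. Groups with 1 library are assumed to vary like the others.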
